A study of Mus musculus with 2 samples.

Results

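Small leucine-rich proteoglycans (SLRPs) were followed in the fibroblasts of 2 single-cell RNA libraries of mouse lung. The 9 members were Dcn, Bgn, Lum, Ogn, Aspn, Fmod, Prelp, Omd and Podn, chosen as a gene family by name out of 32285 genes in the files, and all 9 passed the filter on low counts in the main comparison. Both libraries held live single cells of wild type C57BL/6 mice aged 3 months, sorted for the blue emission that stored retinoids give under ultraviolet light (UV-positive cells). The mice were male according to the study's methods, no treatment was given, and the libraries were sequenced on separate occasions. The number of mice in each library is not given in the sources used here, so no p-value below measures the spread between mice. With library as a block, each printed p-value sets a group difference within libraries against a spread that the fit draws in large part from other genes. With 2 libraries, how the difference of a single gene varied between them weighs little in its p-value.

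SLRPs are secreted proteins built around a run of leucine-rich repeats. Many of them sit on collagen fibrils and set fibril width and spacing, and several hold growth factors or speak to receptors of innate immunity. Decorin (Dcn) and biglycan (Bgn) carry chondroitin or dermatan sulfate chains, lumican (Lum), fibromodulin (Fmod) and osteomodulin (Omd) can carry keratan sulfate, and asporin (Aspn) carries no such chain. In the lung, alveolar fibroblasts lie in the gas-exchanging walls, and adventitial fibroblasts lie in the cuffs around vessels and airways, where fibrillar collagen is dense.

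Fibroblasts were cells with at least 3 UMIs (unique molecular identifiers, each standing for 1 captured transcript) of Col1a2, Mfap4 and Pdgfra together and none of Cdh5, Pecam1, Epcam and Ptprc. They made up 7661 of 9634 cells kept in library 1 and 7239 of 9988 in library 2. Cells with at least 3 UMIs of Serpinf1, Cygb and Mfap5 together formed the adventitial gate (3247 and 4454 cells). Cells with at least 3 UMIs of Tcf21, Npnt and Itga8 and none of the adventitial gate genes formed the alveolar gate (2242 and 1187 cells), and 2172 and 1598 fibroblasts met neither rule. The libraries held 48762735 and 93970185 UMIs over 9669 and 10050 barcodes, of which 23 were the same in both lists, and the median fibroblast had 4311 and 7078 UMIs.

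The adventitial label holds in part. Of 12 tested markers of adventitial fibroblasts 10 were higher in the adventitial gate, among them Pi16, Ccl11, Adh7 and Entpd2, and of 13 markers of alveolar fibroblasts 10 were lower and 1, Lrat, was higher. Pi16, Ccl11, Adh7 and Entpd2 had at most 5 UMIs in the alveolar gate of a library. They passed the filter on low counts through the adventitial gate alone, where they are high, so their calls are a description and no support for the label. Igfbp4, Igfbp6 and C3, also higher, had 71 UMIs or more in the alveolar gate of each library. Yet 94.7% and 99.5% of adventitial-gate cells also held at least 3 UMIs of the alveolar gate genes, with a median of 13 and 27 such UMIs against 6 and 7 of the adventitial gate genes. The groups are therefore called adventitial-gate and alveolar-gate cells. A stricter group, chosen after seeing the data, took the adventitial-gate cells in which the adventitial gate genes outnumbered the alveolar gate genes (gate-dominant cells, 823 and 440).

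Several members are neighbours in the genome (build GRCm38, which is mm10, with GENCODE vM21 gene bounds). Dcn (chr10:97479609-97518143) and Lum (chr10:97565128-97572703) lie 47.0 kb apart on the plus strand. Aspn (chr13:49544443-49567565), Omd (chr13:49582462-49592822) and Ogn (chr13:49608046-49624501) follow each other on the plus strand, Aspn to Omd with a gap of 14.9 kb and Omd to Ogn with a gap of 15.2 kb, all within the bounds of Cenpp on the minus strand. Prelp (chr1:133910304-133921414, minus strand) and Fmod (chr1:134037254-134048277, plus strand) are 115.8 kb apart. Bgn (chrX:73483602-73495933, plus strand) and Podn (chr4:108014791-108096445, minus strand) stand alone, and the annotated bounds of Podn overlap Scp2 on the same strand. Whether reads were counted by strand is not given in the sources used here. Cenpp was at 0.665 to 1.51 CPM in the adventitial-gate and alveolar-gate cells. Scp2 was at 380 and 485 CPM in adventitial-gate cells and at 491 and 592 CPM in alveolar-gate cells. Whether any reads of Scp2 were counted as Podn was not tested.

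The 250 bases before the annotated start are shown for 5 members, since they differ sharply in base composition and the members differ in where they were found. They are from RefSeq (GRCm38.p6), which held an entry for 7 of the 9 members, and the starts are those of RefSeq. These can differ from the GENCODE bounds given above. The window of Podn lies inside those bounds, that of Prelp overlaps their edge, and that of Ogn stops short of them. Entries for Dcn and Lum were not among them. Each is written 5′ to 3′ on the strand of its gene, and capitals mark matches on either strand to the TATA box TATAAA, the GC box GGGCGG bound by Sp proteins, the site TGANTCA of AP-1 factors, the site GGAATG of TEAD factors or the half-site AGGTCA of nuclear receptors, including overlapping matches. Bgn is chrX:73483351-73483600, Podn chr4:108031955-108032204, Aspn chr13:49544193-49544442, Ogn chr13:49607765-49608014 and Prelp chr1:133921402-133921651.
Bgn: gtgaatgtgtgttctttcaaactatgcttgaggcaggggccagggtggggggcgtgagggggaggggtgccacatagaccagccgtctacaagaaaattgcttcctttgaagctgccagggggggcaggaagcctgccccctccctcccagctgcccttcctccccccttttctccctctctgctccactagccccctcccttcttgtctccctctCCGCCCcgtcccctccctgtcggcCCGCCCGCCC
Podn: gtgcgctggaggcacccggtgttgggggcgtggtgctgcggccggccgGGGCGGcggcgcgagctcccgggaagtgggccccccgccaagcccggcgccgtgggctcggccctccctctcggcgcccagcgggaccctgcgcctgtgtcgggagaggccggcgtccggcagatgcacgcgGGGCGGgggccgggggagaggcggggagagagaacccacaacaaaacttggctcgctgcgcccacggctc
Aspn: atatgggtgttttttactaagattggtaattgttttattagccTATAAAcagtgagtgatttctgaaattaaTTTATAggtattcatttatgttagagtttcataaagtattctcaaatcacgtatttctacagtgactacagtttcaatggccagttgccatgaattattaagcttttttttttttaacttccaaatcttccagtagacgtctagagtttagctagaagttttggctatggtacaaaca
Ogn: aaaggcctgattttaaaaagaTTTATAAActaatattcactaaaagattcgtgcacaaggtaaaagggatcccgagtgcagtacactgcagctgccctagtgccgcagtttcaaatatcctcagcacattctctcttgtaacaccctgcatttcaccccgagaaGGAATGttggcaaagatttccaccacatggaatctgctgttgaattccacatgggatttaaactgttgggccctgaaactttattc
Prelp: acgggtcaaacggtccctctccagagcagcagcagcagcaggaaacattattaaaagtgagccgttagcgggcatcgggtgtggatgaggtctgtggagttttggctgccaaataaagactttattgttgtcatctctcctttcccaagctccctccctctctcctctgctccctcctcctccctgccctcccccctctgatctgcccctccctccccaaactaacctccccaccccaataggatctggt

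The windows of Podn and Bgn were 78.0% and 64.4% G and C, against a median of 52.0% over 27025 promoters of this length. They held 2 and 3 matches to GGGCGG, which 32.9% of all promoters hold. The window of Aspn was 30.0% G and C and that of Ogn 42.0%, each with 2 matches to TATAAA, which 13% of all promoters hold. The window of Prelp, 55.6% G and C, had no match to any of the 5. TGANTCA and GGAATG were held by 6.9% and 12.6% of all promoters and AGGTCA by 13.8%. A match describes the letters of the window and no more. Prelp and Bgn are both abundant in alveolar-gate cells, but with no match in its window Prelp could share none with Bgn. Whether the matches bear on the levels was not tested.

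Levels are given as CPM (UMIs of the gene per 1000000 UMIs summed over the cells of a group), and because 1 UMI stands for 1 captured transcript end, they can be set side by side between genes without a length. In alveolar-gate cells 3 members gave nearly all SLRP transcripts. Ogn stood at 1710 and 2533 CPM in libraries 1 and 2, Bgn at 1587 and 1533, and Prelp at 1108 and 1145. In adventitial-gate cells Dcn joined them. The order of the other members was Podn, then Omd, Fmod and Aspn, whose ranges over the groups overlapped, then Lum. Mean levels in the adventitial gate ran from 2315 ± 40.9 CPM for Bgn to 4.29 ± 3.34 CPM for Lum (SD, n = 2). Bgn was above Ogn (1821 ± 483 CPM) within each library, at 2344 against 1480 and 2286 against 2163 CPM, which was not tested.

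**Figure D1:**
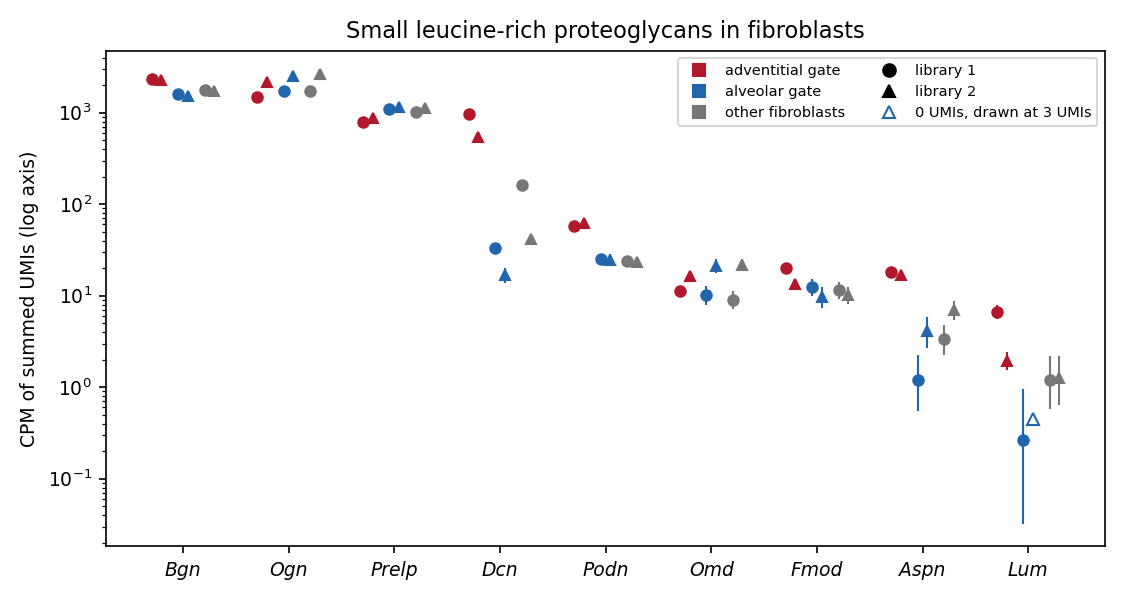
CPM of summed UMIs (log axis) of each member in adventitial-gate, alveolar-gate and other fibroblasts, with 1 point per library and bars for the exact Poisson 95% interval, which covers counting error only. Dcn is at 977 and 542 CPM in the adventitial gate and at 33.5 and 16.9 CPM in the alveolar gate, whereas Ogn and Prelp sit slightly higher in the alveolar gate within each library. The open triangle marks Lum in library 2 of the alveolar gate, with 0 UMIs, drawn at the level of 3 UMIs.

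The make-up of the family thus differed between the gates. Dcn gave 17.1% and 9.07% of the UMIs of all 9 members in adventitial-gate cells, and 0.747% and 0.319% in alveolar-gate cells. Ogn gave 25.9% and 36.2% in the adventitial gate and 38.1% and 47.9% in the alveolar gate, and Prelp 13.9% and 14.6% against 24.7% and 21.7%. In gate-dominant cells Dcn reached 33.2% and 28.3% of the members' UMIs, close to the 38.9% and 40.7% of Bgn. The 9 members together came to 5709 and 5976 CPM in the adventitial gate and to 4487 and 5288 CPM in the alveolar gate.

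**Figure D2:**
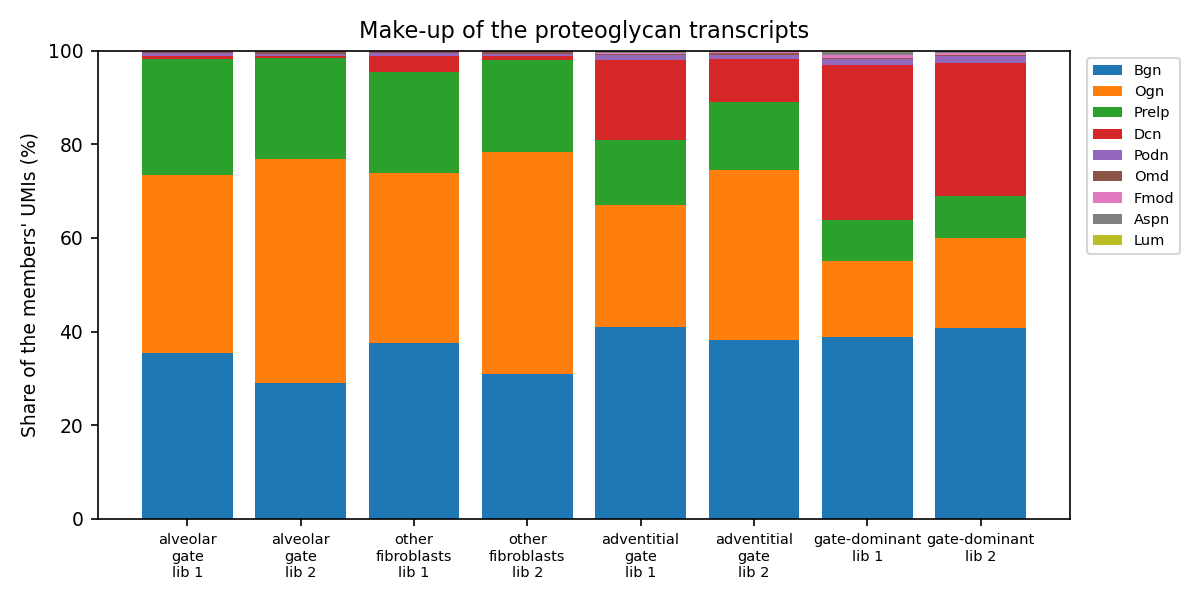
Share of the UMIs of all 9 members that each member gave (%, stacked bars), by group of fibroblasts and library. The share of Dcn (red) is 0.747% and 0.319% in the alveolar gate and 33.2% and 28.3% in gate-dominant cells, while the shares of Ogn (orange) and Prelp (green) are smaller there.

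The comparison of adventitial-gate with alveolar-gate fibroblasts asked where in the lung stroma the family's transcripts were higher. Of the 9 members 6 were higher in the adventitial gate (Dcn, Lum, Aspn, Podn, Fmod and Bgn, where Lum was tested only because it is high in the adventitial gate), 1 was lower (Prelp) and 2 did not pass the test (Ogn and Omd). Over all 12776 genes tested 12.5% were called higher and 8.46% lower, 21.0% in all (edgeR quasi-likelihood test, library as a block, Benjamini-Hochberg adjusted p under 0.05). The members' median log2 fold change was 0.69, against -0.02 over all genes. In a fit without the library block no gene of either direction passed, and 1076 had an unadjusted p under 0.05.

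Dcn, which binds collagen fibrils and TGF-beta, differed most firmly. Its level was 977 and 542 CPM in adventitial-gate cells and 33.5 and 16.9 CPM in alveolar-gate cells, and the groups did not overlap. The log2 fold change was 5.01 (SE 0.11, edgeR adjusted p = 2.7e-06), 32.3-fold, and the ratio was 29.1 in library 1 and 32.1 in library 2. The size depended on how the gates were drawn. The log2 fold change was 3.48 with the gates set on cells thinned to 2000 UMIs, 4.21 without cells holding markers of other cell types, 6.55 with gate-dominant cells and 7.57 with the 27 and 6 adventitial-gate cells that had no alveolar gate UMI, and it was called in all 4. With each cell thinned to 2000 UMIs, 33.1% and 21.9% of adventitial-gate cells had a Dcn UMI, against 3.08% and 2.05% of alveolar-gate cells. Endothelial barcodes, which should lack Dcn, gave 3.16% and 2.88% at the same depth (median 4589 and 12395 UMIs before thinning, 3358.5 and 5534 in the alveolar gate). Most of those barcodes also held fibroblast UMIs, and the ones that held none gave 0% and 0.444% (19 and 225 thinned barcodes, 0 and 1 Dcn UMIs), where the alveolar-gate share of library 1 lies within the upper limit of 17.6% that these barcodes allow and that of library 2 within 2.45%. Whether Dcn UMIs in alveolar-gate cells are background was not tested. Within the adventitial gate the transcript was uneven, with most thinned cells at 0. Library 1 held more Dcn than library 2 in both gates.

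Lum, the close neighbour of Dcn on chromosome 10 and like it a partner of collagen fibrils, was rare. It had 124 and 79 UMIs in adventitial-gate cells (6.65 and 1.93 CPM), and 2 and 0 UMIs in alveolar-gate cells. In library 1 the ratio was 25.0 (exact 95% interval 6.77 to 209). In library 2, with 0 UMIs in the alveolar gate, it was 4.28 against a floor of 3 UMIs, and the exact 95% lower limit was 3.40. It passed the filter on low counts through the adventitial gate alone, where it is high, so its call is a description and its place among the 6 higher members is no support for that count. Lum was found in 0.811% and 0.315% of thinned adventitial-gate cells.

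Aspn, an inhibitor of TGF-beta signalling, was at 18.0 and 17.0 CPM in the adventitial gate and at 1.20 and 4.07 CPM in the alveolar gate. Its level in the adventitial gate was alike in the libraries, and the alveolar-gate level rested on 9 and 27 UMIs. The log2 fold change was 2.85 (SE 0.33, edgeR adjusted p = 0.0013), and the ratio was 15.0 without library 2 and 4.19 without library 1. With the gates set on thinned cells the log2 fold change was 2.13, without cells of other types 3.57, with gate-dominant cells 4.01 and with cells that had no alveolar gate UMI 7.05.

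Podn (podocan), a collagen-binding member, was at 58.2 and 61.6 CPM in the adventitial gate and at 25.0 and 24.7 CPM in the alveolar gate. It had the smallest SE of the members, with a log2 fold change of 1.35 (SE 0.09, edgeR adjusted p = 9.3e-05) or 2.55-fold. It was found in 9.89% and 10.1% of thinned adventitial-gate cells and in 4.72% and 4.19% of thinned alveolar-gate cells, against 3.16% and 3.04% of all endothelial barcodes and 0% of those without fibroblast UMIs, from 0 Podn UMIs in both libraries, which allows up to 17.6% and 1.63%. The log2 fold change was 2.09 with gate-dominant cells and 1.97 with cells that had no alveolar gate UMI, where it did not pass the test (edgeR adjusted p = 0.20).

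Bgn, which binds collagen and, when freed from the matrix, Toll-like receptors, was at 2344 and 2286 CPM against 1587 and 1533 CPM. The difference was small but larger than the spread, with a log2 fold change of 0.65 (SE 0.11, edgeR adjusted p = 0.0058). At 2000 UMIs per cell 97.4% of adventitial-gate cells in each library and 93.8% and 93.4% of alveolar-gate cells had a Bgn UMI, so it was a transcript of nearly every fibroblast and differed in amount.

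Fmod, a keratan sulfate proteoglycan of collagen fibrils, was at 20.2 and 13.4 CPM against 12.4 and 9.64 CPM (log2 fold change 0.69, SE 0.14, edgeR adjusted p = 0.013). This call was lost with DESeq2 (adjusted p = 0.16), with cells thinned (0.22) and without cells holding markers of other cell types (0.17). With gate-dominant cells the log2 fold change was 1.58, and with no alveolar gate UMI it was 2.64 and did not pass (edgeR adjusted p = 0.18). Over the thinned cells Fmod was found in 2.43% and 2.16% of the adventitial gate and in 2.53% and 1.63% of the alveolar gate, whose intervals overlapped.

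Prelp, which joins basement membranes to collagen, was the member called lower. It was at 795 and 875 CPM in the adventitial gate and at 1108 and 1145 CPM in the alveolar gate, with no overlap (log2 fold change -0.35, SE 0.09, edgeR adjusted p = 0.038). With cells that had no alveolar gate UMI the log2 fold change of Prelp was -1.63 (edgeR adjusted p = 0.00075). Ogn (osteoglycin or mimecan, a regulator of fibril growth) was at 1480 and 2163 CPM against 1710 and 2533 CPM. It was lower in the adventitial gate within each library, but the difference did not pass the test (log2 fold change -0.14, SE 0.11, edgeR adjusted p = 0.41). In gate-dominant cells Ogn fell to 1144 and 1262 CPM and passed it (log2 fold change -0.67, edgeR adjusted p = 0.0034). Omd, a keratan sulfate member first known from bone, was at 11.2 and 16.2 CPM against 10.1 and 21.1 CPM, and its log2 fold change of -0.09 (SE 0.16, edgeR adjusted p = 0.74) had opposite signs in the libraries, 0.14 in library 1 and -0.38 in library 2.

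**Figure D3:**
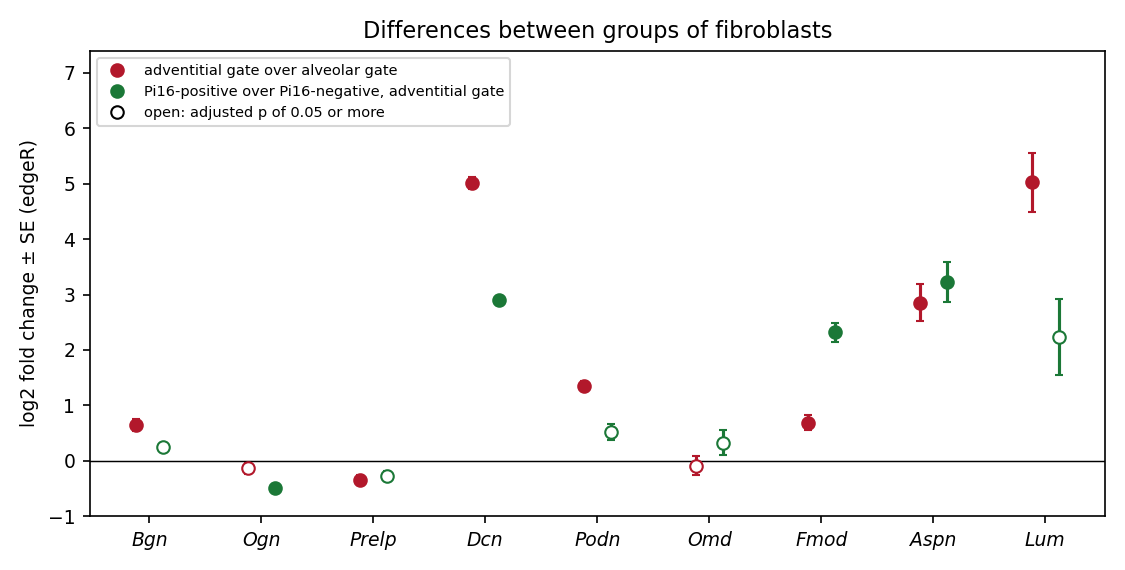
Log2 fold change with its SE (edgeR) of each member between adventitial-gate and alveolar-gate fibroblasts (red) and between Pi16-positive and Pi16-negative adventitial-gate fibroblasts (green), 2 libraries a group. Filled points have an adjusted p under 0.05. Dcn and Aspn are filled well above 0 in both comparisons, at 5.01 and 2.90 for Dcn and 2.85 and 3.22 for Aspn. Lum has 2 and 0 UMIs in the alveolar gate, so its fitted value is no bound.

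Markers of other cell types were not spread evenly over the gates. The 7 epithelial markers summed to 1995 and 234 CPM in the adventitial gate and to 2433 and 2029 CPM in the alveolar gate, none at 0 and none called, and in library 2 Sftpc, the surfactant gene of alveolar epithelium, was at 164 against 1867 CPM. Without cells holding Sftpc or Sftpb, a setting chosen after seeing the data, 6 members were called higher and 1 lower, where 8.93% of all genes tested were higher and 5.71% lower. Pericyte markers summed to 54.2 and 52.3 against 6.39 and 10.2 CPM, nearly all of it Kcnj8 in the adventitial gate. Smooth muscle markers summed to 404 and 499 against 814 and 959 CPM, endothelial markers to 69.8 and 90.8 against 18.0 and 34.1 CPM, mesothelial markers to 69.2 and 112 against 131 and 212 CPM, and immune markers to 48.4 and 29.6 against 28.1 and 19.3 CPM. Most of the smooth muscle sum was Tagln (301 and 351 against 714 and 766 CPM). Cav1 gave most of the endothelial sum (65.5 and 80.2 against 12.5 and 19.6 CPM), and Upk1b most of the mesothelial sum (60.1 and 108 against 127 and 209 CPM). The study itself lists Tagln and Cav1 among genes of its fibroblast clusters. Myofibroblast markers summed to 92.9 and 100.1 against 26.9 and 48.7 CPM. Schwann cell markers were at 1.34 and 2.08 against 1.33 and 1.51 CPM, and all 7 chondrocyte markers were at 0 in the alveolar gate and 6 of 7 in the adventitial gate. Without cells holding mesothelial, smooth muscle, pericyte, chondrocyte or Schwann markers, 4 of the 8 members still tested were called higher, Dcn, Aspn, Podn and Bgn, and 1 lower, Prelp, beside 11.7% of all genes tested higher and 8.09% lower. Acta2 and Tagln were not used to leave out cells. The part of the other marker lists in these differences was not tested.

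Along the summed UMIs of Serpinf1, Cygb and Mfap5 over all fibroblasts the members changed by degrees rather than at the limit of 3 UMIs. Dcn was at 37.1 and 17.0 CPM in cells with none of these UMIs, at 209 and 58.9 CPM in cells with 2, at 401 and 125 CPM in cells with exactly 3, and at 1695 and 907 CPM in cells with over 10. Bgn went from 1595 and 1530 to 2818 and 2599 CPM over the same range, and Podn from 24.9 and 24.6 to 87.4 and 87.6 CPM. Prelp went the other way, from 1101 and 1144 to 678 and 787 CPM. Ogn kept its level up to 2 such UMIs (1749 and 2708 CPM) and was at 1270 and 1798 CPM in cells with over 10. The lowest group of cells had a median of 3255.5 and 5509.5 UMIs per cell and the highest 6761 and 10984.5, so depth moved with the gate genes. With the gate genes counted in cells thinned to 2000 UMIs, the slope of Dcn was shallower, from 162 and 125 CPM in cells with none to 2011 and 906 CPM in cells with 6 to 10, and over 10 such UMIs were left in 26 and 9 cells.

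**Figure D4:**
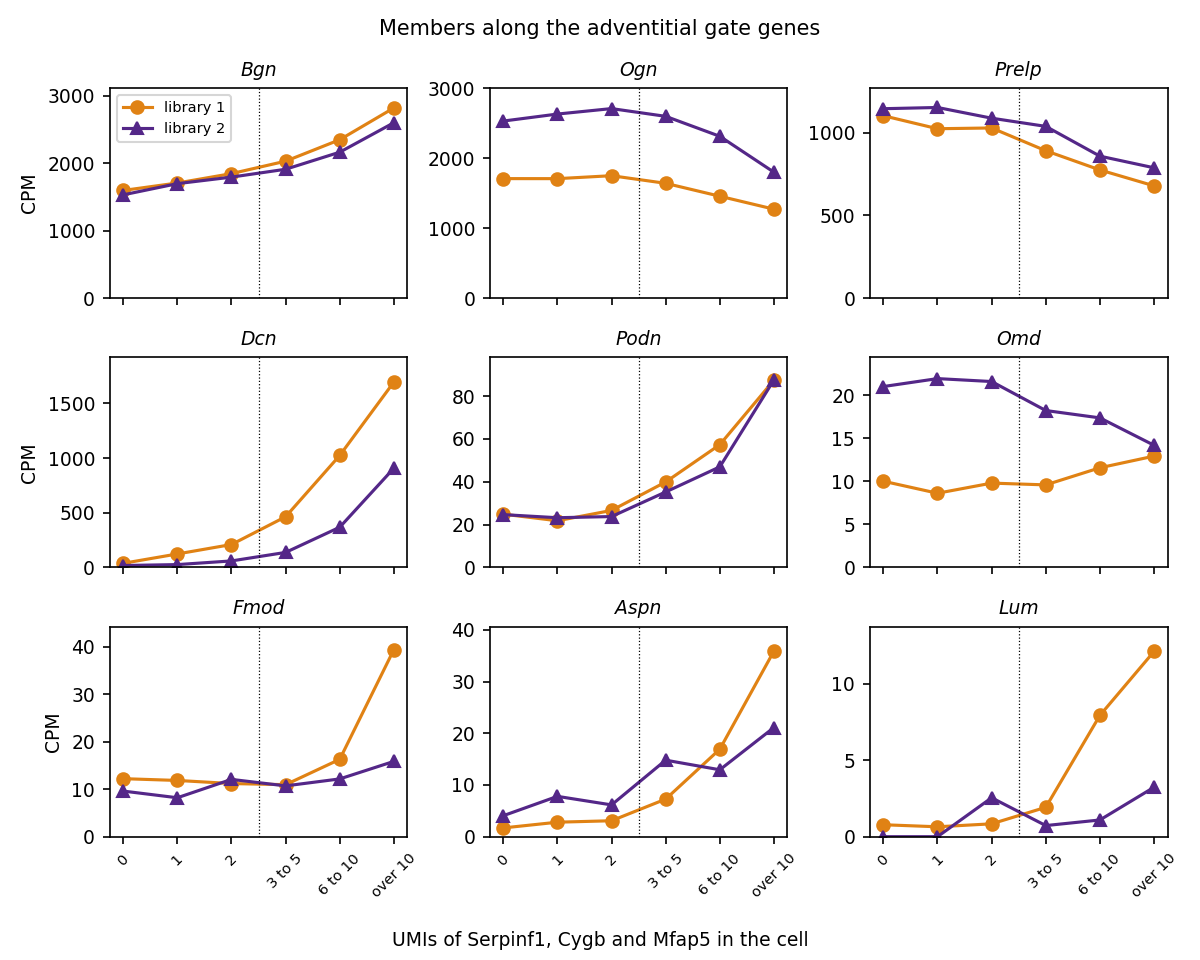
CPM of each member (1 panel each, axis from 0) in fibroblasts grouped by their UMIs of Serpinf1, Cygb and Mfap5, by library. The dotted line stands at the limit of the adventitial gate. Dcn climbs to 1695 and 907 CPM and Podn to 87.4 and 87.6 CPM in cells with over 10 such UMIs, and Ogn and Prelp are lowest there.

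Among adventitial-gate cells, those with a UMI of Pi16 (peptidase inhibitor 16, which marks a collagen-rich adventitial population found in many organs) were 231 in library 1 and 83 in library 2. This comparison asked whether the family was even within the adventitial gate. Of the 9 members 3 were higher in Pi16-positive cells (Aspn, Dcn and Fmod), 1 was lower (Ogn) and 5 did not pass the test. Over all 12208 genes tested 3.63% were called higher and 2.88% lower (6.50% in either direction), and none passed without the library block (edgeR), where 898 had an unadjusted p under 0.05. The median Pi16-positive cell had 6391 and 10981 UMIs and the median Pi16-negative cell 5448 and 8330.

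Markers of the other groups moved with Pi16. All 13 markers of alveolar fibroblasts were lower in Pi16-positive cells (summed level 5464 and 7653 against 12232 and 11426 CPM). Of 11 tested adventitial markers 10 were higher. The summed level of that list was 13028 and 8904 against 4527 and 3178 CPM. This sum holds Pi16, which chose the cells and was not tested. Dpp4, also on the list, had 0 UMIs in the Pi16-positive cells of both libraries. Of 6 tested epithelial markers 2 were lower, Sftpc and Sftpb (the list at 402 and 120 against 2131 and 237 CPM), and of 6 immune markers 2 were lower (11.6 and 8.81 against 51.5 and 30.2 CPM). Of 4 tested myofibroblast markers 2 were higher (251 and 220 against 79.4 and 97.1 CPM), as were 1 of 3 pericyte markers (161 and 192 against 45.1 and 48.7 CPM) and 1 of 4 endothelial markers (105.1 and 185 against 66.8 and 88.4 CPM). Of 4 smooth muscle markers 1 was higher and 1 lower (263 and 449 against 416 and 500 CPM), and of 2 mesothelial markers 1 was lower (12.97 and 29.4 against 74.0 and 114 CPM). The 1 Schwann cell marker tested was not called, and no chondrocyte marker could be tested. The part of these lists in the members' differences was not tested.

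Dcn was at 4627 and 3726 CPM in Pi16-positive cells, above Bgn, and at 665 and 461 CPM in Pi16-negative cells (log2 fold change 2.90, SE 0.08, edgeR adjusted p = 1.7e-05). It was found in 94.8% and 81.9% of thinned Pi16-positive cells, against 28.3% and 20.8% of the others. Aspn was at 135 and 80.3 CPM against 8.03 and 15.4 CPM (log2 fold change 3.22, SE 0.36, edgeR adjusted p = 0.0031), with a log2 ratio of 4.07 without library 2 and 2.38 without library 1. The 231 Pi16-positive cells of library 1 thus held 198 of the 336 Aspn UMIs of its adventitial gate, and the 83 of library 2 held 82 of 696. Fmod was at 83.3 and 53.9 CPM against 14.8 and 12.4 CPM (log2 fold change 2.32, SE 0.17, edgeR adjusted p = 0.00063).

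Ogn was at 1054 and 1602 CPM in Pi16-positive cells and at 1516 and 2177 CPM in the others (log2 fold change -0.49, SE 0.07, edgeR adjusted p = 0.0070). Bgn (2762 and 2692 against 2308 and 2275 CPM), Prelp (612 and 801 against 810 and 877 CPM), Podn (71.0 and 100.9 against 57.2 and 60.6 CPM) and Omd (14.3 and 19.6 against 10.9 and 16.1 CPM) had edgeR adjusted p-values of 0.071, 0.15, 0.0997 and 0.52. Lum had 50 UMIs in the Pi16-positive cells of library 1 (34.1 CPM) and 0 in those of library 2 (exact 95% upper limit 3.61 CPM), against 4.31 and 1.98 CPM in the others (edgeR adjusted p = 0.13). With the deepest cells left out (those above the 95th percentile of UMIs), Bgn, Podn and Lum were called higher and Prelp lower as well (edgeR adjusted p = 0.028, 0.0024, 4.7e-07 and 0.013). That call of Lum rests on library 1 alone, since the Pi16-positive cells of library 2 had 0 Lum UMIs.

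Fibroblasts with at least 2 UMIs of Hhip, a marker of myofibroblasts, that lay outside the adventitial gate numbered 18 and 41, too few for a test. Aspn had 1 and 4 UMIs in them (14.4 and 14.3 CPM, exact 95% intervals 0.364 to 80.0 and 3.89 to 36.5), against 1.20 and 4.07 CPM in the alveolar gate. The Hhip-positive interval holds the alveolar-gate level in both libraries. Hhip itself was higher in the adventitial gate than in the alveolar gate, at 35.6 and 37.2 against 7.99 and 10.5 CPM (log2 fold change 2.06, edgeR adjusted p = 0.00011). Cells with Hhip UMIs thus also lie inside the adventitial gate, and their part in its Aspn level was not tested.

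The abundant members were also found in barcodes of other cell types. Of endothelial, epithelial and immune barcodes, 67.5% and 80.1%, 26.8% and 63.0%, and 37.3% and 49.1% also held UMIs of the genes that define fibroblasts. Over all such barcodes Ogn was at 992 and 939 CPM (endothelial), 93.1 and 501 CPM (epithelial) and 372 and 750 CPM (immune). In those without fibroblast UMIs it was at 22.3 and 48.6, 2.97 and 9.40, and 11.1 and 5.14 CPM, far under the fibroblast levels. These barcodes were chosen for holding no UMI of Col1a2, Mfap4 and Pdgfra, so low levels were partly set by that choice. The endothelial ones were also shallower, with a median of 2040.5 and 3953 UMIs against 4589 and 12395 over all endothelial barcodes. Such barcodes do not measure the background in fibroblasts. Bgn was at 134 and 92.2 CPM in the endothelial barcodes without fibroblast UMIs, from 12 and 112 UMIs, and at 6.35 and 4.70 CPM in the epithelial ones. Prelp was at 55.8 and 36.2 CPM in the endothelial ones and at 2.75 and 4.70 CPM in the epithelial ones.

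**Figure D5:**
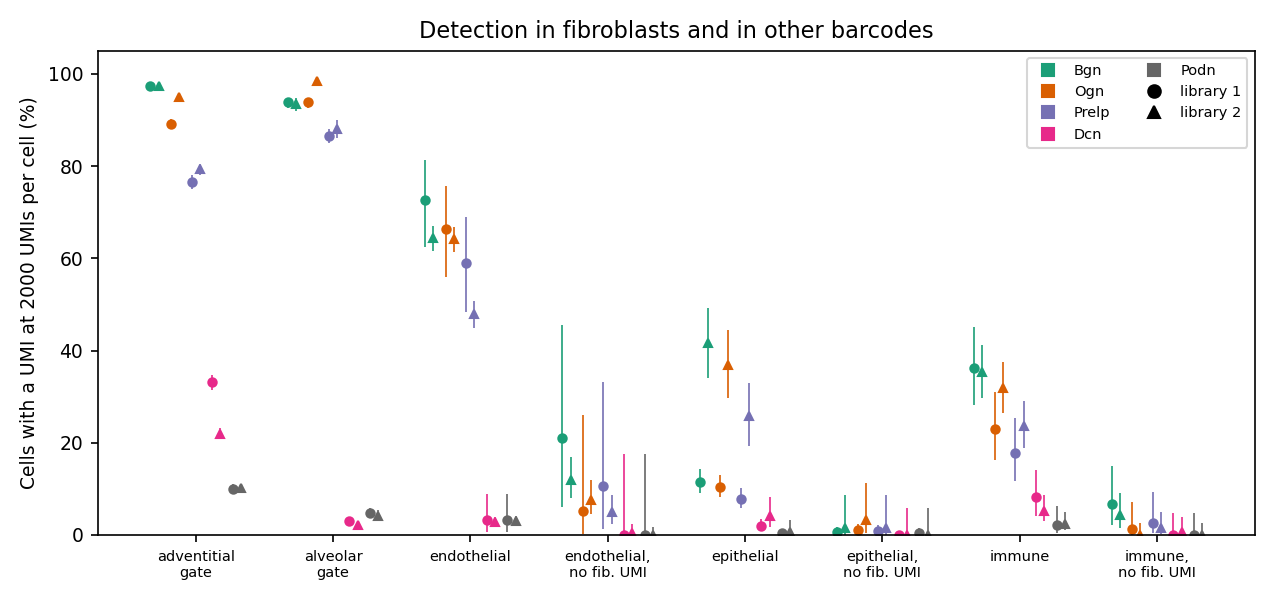
Share of cells (%) with a UMI of Bgn, Ogn, Prelp, Dcn and Podn after thinning each cell to 2000 UMIs, by group and library, with exact binomial 95% intervals that cover counting error only. Bgn and Ogn are found in nearly all fibroblasts, and in barcodes of other types without fibroblast UMIs (no fib. UMI) the shares fall to 21.1% or less.

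Within the adventitial gate the correlations between members over cells were weak. Over 3204 and 4450 thinned cells, Pearson's r between log values averaged over the libraries was -0.19 for Dcn with Ogn, -0.14 for Dcn with Prelp and 0.12 for Ogn with Prelp, and among the 5 members found in at least 5% of cells every other pair lay between -0.05 and 0.09. Cells of a library share its depth and its free RNA, so these values are a description. The highest r with any gene compared was 0.12 for Podn and 0.23 for Bgn. Small values in their pairs therefore cannot show whether these members vary together. Of 4451 genes compared, those most like Dcn were Igfbp6 (0.41), Igfbp4 (0.39) and Col14a1 (0.34). Those most like Ogn were Inmt (0.28), Fmo2 (0.27) and Npnt (0.25), and those most like Prelp were Hsd11b1 (0.22), Npnt (0.21) and Gpx3 (0.21), where Npnt is itself a gate gene. Bgn was most like Mgp (0.23), Igfbp7 (0.18) and Mfap4 (0.16), and Podn like Mgp, Col3a1 and C4b (0.12 each).

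The rest of the SLRP family was sparse. Of 9 further members 4 could be tested, and 2 of them were higher and 0 lower. Tsku was higher in the adventitial gate (3.65 and 6.12 against 1.46 and 1.66 CPM, log2 fold change 1.70, edgeR adjusted p = 0.0052), as was Chadl (8.42 and 4.55 against 3.59 and 2.26 CPM, 1.23, edgeR adjusted p = 0.0078), and both calls were lost with DESeq2, that of Chadl also with no alveolar gate UMI. Ecm2, the neighbour of Aspn, was at 42.9 and 50.9 against 51.2 and 62.7 CPM (edgeR adjusted p = 0.14), and Optc at 0.429 and 0.685 against 0.932 and 2.11 CPM (edgeR adjusted p = 0.075). Kera, Epyc and Chad had 0 UMIs in both gates of both libraries, where 3 UMIs would stand for 0.0734 to 0.452 CPM, and Nyx and Podnl1 had at most 8 in any gate of a library.

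Genes that work with the SLRPs were described by lists, whose counts stand beside 12.5% higher and 8.46% lower over all genes tested. Of 19 tested fibrillar collagens and their partners 14 were higher and 2 lower in the adventitial gate (median log2 fold change 0.82), led by Fbln2, a fibulin of elastic fibres (31.9 and 27.0 against 1.20 and 1.66 CPM, log2 fold change 4.46), Col14a1 (138 and 102 against 12.6 and 8.59 CPM, 3.59) and Col5a3 (41.5 and 23.3 against 11.05 and 3.31 CPM, 2.31). Of 13 tested processing and turnover enzymes 8 were higher and 0 lower (median 0.74). The protease Mmp3 was at 514 and 409 against 78.9 and 22.9 CPM (log2 fold change 3.42, and 2.70 without library 2 and 4.16 without library 1), the proteoglycan-cutting Adamts4 at 26.9 and 8.02 against 4.66 and 1.51 CPM (2.60), and the collagenase cathepsin K, Ctsk, at 38.0 and 24.4 against 7.85 and 6.03 CPM (2.25). The edgeR adjusted p-values of these 6 genes ran from 4.7e-06 to 0.00022. Over the alternatives run, the log2 fold change went from 2.88 to 5.76 for Fbln2, from 2.37 to 4.30 for Mmp3, from 1.62 to 3.21 for Adamts4 and from 1.72 to 2.79 for Col5a3. The calls of Col5a3 and Ctsk were lost with cells that had no alveolar gate UMI.

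Of 21 tested enzymes that make chondroitin and dermatan sulfate 4 were higher and 2 lower, with a median log2 fold change of 0.10, which is near the share over all genes. Chst11, a chondroitin sulfotransferase, was at 2.68 and 2.98 CPM against 1 and 0 UMIs, and it passed the filter on low counts through the adventitial gate alone. Xylt1, which starts the chain, was at 4.67 and 3.69 against 0.932 and 0.904 CPM (log2 fold change 2.27), and Csgalnact1 at 21.6 and 5.53 against 12.5 and 1.21 CPM (1.19, and 2.20 without library 1). The Csgalnact1 call was lost without cells holding Sftpc or Sftpb (edgeR adjusted p = 0.095) and with no alveolar gate UMI. Of 5 tested enzymes of keratan sulfate 0 were higher and 2 lower (median -0.17). These were the sulfotransferases Chst2 (30.0 and 17.1 against 79.2 and 33.8 CPM, -1.12) and Chst1 (9.12 and 4.99 against 22.2 and 6.03 CPM, -0.80, edgeR adjusted p = 0.041). The Chst1 call was lost with DESeq2 (adjusted p = 0.22), with the gates set on thinned cells (0.11), without cells of other types (0.087), without Sftpc or Sftpb cells (0.11) and with no alveolar gate UMI (0.97), where that of Chst2 was lost too.

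Of 16 tested ligands and receptors known to bind SLRPs 7 were higher and 0 lower (median log2 fold change 0.44). The matricellular ligand Ccn4 was at 8.47 and 6.51 against 2.40 and 0.452 CPM (log2 fold change 2.48, and 1.82 without library 2 and 3.85 without library 1), Tgfb3 at 78.4 and 42.9 against 16.5 and 9.79 CPM (2.29), and the receptor Tlr2 at 5.79 and 4.04 against 3.19 and 1.36 CPM (1.21, edgeR adjusted p = 0.016). The Tlr2 call was lost with DESeq2, with cells thinned, with the gates set on thinned cells, without cells of other types, without Sftpc or Sftpb cells and with no alveolar gate UMI, and with the last the calls of Ccn4 and Vcan were lost as well. Of 13 tested proteoglycans outside the family 8 were higher and 1 lower (median 0.55). Vcan, a large chondroitin sulfate proteoglycan, was at 29.7 and 36.7 against 5.72 and 9.49 CPM (log2 fold change 2.22), Spock2 at 8.26 and 11.8 against 0.399 and 2.26 CPM (3.03, and 4.37 without library 2 and 2.38 without library 1), and Bcan at 0.215 and 0.0489 against 2.13 and 1.21 CPM (-3.67, and -4.62 without library 1). Bcan had 4 and 2 UMIs in the adventitial gate and 16 and 8 in the alveolar gate. It passed the filter on low counts through the alveolar gate alone, where it is high, so its call is a description. In the alveolar gate Spock2 had 3 UMIs in library 1 and Ccn4 had 3 in library 2. In Pi16-positive cells, of 19 tested genes of the collagen list 5 were higher and 3 lower, and of 13 processing enzymes 5 were higher and 3 lower, beside 3.63% higher and 2.88% lower over all genes. The 21 chondroitin and dermatan sulfate enzymes gave 2 and 2, the 5 keratan sulfate enzymes 0 and 1, the 17 ligands and receptors 3 and 0, and the 12 other proteoglycans 4 and 1.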

How the data were processed

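Per the labels, UV-positive lung cells were sorted, 10x Genomics 3′ v3.1 libraries were sequenced, and the submitters' processing notes name Cell Ranger 5.0.1 and mm10. The deposited matrices hold raw UMI counts per gene and cell, made by the authors, with 1 matrix per library. The features and barcodes files give names. Barcodes were used if they had 200 genes or more and no more than 10% of their UMIs from mitochondrial genes. No doublet caller was run, and leaving out cells above the 95th percentile of UMIs was an alternative.

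The members, gene lists and comparisons were chosen with earlier results of these data known, and the promoter motifs after member levels were known. UMIs were summed per library and group, and tested with edgeR 4.0.16 (R 4.3.3: TMM, filterByExpr, glmQLFit, library as block, Benjamini-Hochberg over all genes tested, adjusted p under 0.05). The 13 genes of the gates stayed in library totals but were not tested, nor was Pi16 in the Pi16 comparison. Pairing comes from the design, since both groups of a comparison were taken from the same library, and cells are not replicates. SE is the absolute log2 fold change over the square root of F. DESeq2 1.42.0, median-of-ratios size factors, no low-count filter, no block, thinned cells and other gates were alternatives, and the scripts were tested on simulated data. Thinning drew 2000 UMIs per cell without replacement and left out shallower cells (43 and 4 of the adventitial gate, 421 and 18 of the alveolar gate). Shares have exact binomial and CPM exact Poisson 95% intervals. Endothelial barcodes had at least 3 UMIs of their defining genes, and epithelial and immune barcodes at least 2.

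Named genes were all members, every further SLRP tested, up to 3 called genes of each list with the largest change, and for members found in at least 5% of thinned adventitial-gate cells of both libraries the 3 genes most correlated with each. Protein sequences were not analysed here.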

Additional observations from a re-analysis of the deposited data

How the results depend on the processing

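With the library block, which pairs the groups of each comparison, removed, edgeR called 0 genes higher, 0 lower, and 0 members in either direction, in both comparisons (1076 and 898 genes at an unadjusted p under 0.05). For adventitial-gate against alveolar-gate cells (1602 higher and 1081 lower, members 6 and 1), DESeq2 gave 883 and 446, the 27 and 6 adventitial-gate cells with no alveolar gate UMI 100 and 108 with 2 members higher, gates at 5 UMIs 1777 lower, other fibroblasts in the fit 1706 lower, cells without Sftpc or Sftpb 983 and 629, and gate-dominant cells 2 members lower. For Pi16-positive cells (443 and 351, members 3 and 1), leaving out the deepest cells gave 777 and 732 with 6 members higher and 2 lower, and no low-count filter gave 764 lower with 5 members higher and 2 lower. With no alveolar gate UMI the calls of Bgn, Podn and Fmod were lost, at log2 fold changes of 0.28, 1.97 and 2.64 in a group of 27 and 6 cells. In the Pi16 comparison Lum was also called with cells thinned, with at least 2 Pi16 UMIs and without the low-count filter, which added Podn and Prelp too. Other changed calls of members are given beside each. Reversed signs were Omd at 0.45 without cells of other types, 0.17 without Sftpc or Sftpb cells and 0.14 without library 2 (-0.38 without library 1), Ecm2 at 0.72 with no alveolar gate UMI, and Lum at -0.0010 under DESeq2 in the Pi16 comparison. The mean log2 ratio of Aspn in Hhip-positive cells was 2.64, 1.26 with at least 1 Hhip UMI, and between 1.74 and 3.54 with either library left out. Its thinned value could not be formed, since library 1 then had 0 Aspn UMIs. The causes were not tested. With 1 library left there are no residual degrees of freedom, so those are values without a test. Depth limits Lum, with 2 and 0 UMIs in the alveolar gate, and Aspn, with 9 and 27.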
